A study of Mus musculus with 6 samples.

Results

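The 8 genes described here belong to the MHC class II presentation pathway: H2-Aa, H2-Ab1, H2-Eb1, H2-DMa, H2-DMb1, Cd74, Ciita and Cd86. They were taken as a fixed list of symbols from a table of 33184 gene IDs. All 8 were in the table, and all 8 averaged 0.5 FPKM or more, the filter that left 16005 genes for testing. FPKM is a read level scaled to gene length and to the mapped total of the library, so levels of different genes can be set side by side. The libraries were mRNA-seq libraries of skin wounds from mice of genotype dbdb, diabetic animals without a working leptin receptor, on the C57BL/Ks background given in the study's methods. A round wound of 6 mm was cut through epidermis and dermis, control siRNA (NC) or SFRP2 siRNA was injected around it at dpi1 (day 1 after injury), and the wound tissue was frozen at dpi4, although the sample titles carry day 3. There were 3 libraries labelled NC and 3 labelled SFRP2-siRNA. Both groups were dbdb and both received an injection, and no unwounded or non-diabetic skin was analysed here. The labels do not state that each library came from its own animal, so p-values measure the spread between these libraries, which may in part be technical.

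MHC class II molecules carry peptides from engulfed material to the surface of antigen-presenting cells, where CD4+ T cells read them. The alpha and beta chains are assembled with the invariant chain, which is cut away in the endosome, and H2-DM then exchanges its last fragment for a peptide. Transcription of the chain, H2-DM and invariant chain genes depends on the transactivator Ciita, which is recruited to paired X and Y boxes in class II promoters. In wounded skin these genes are read mostly from macrophages, dendritic cells, Langerhans cells and B cells.

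The X and Y boxes are shown for H2-Aa, H2-Eb1 and H2-DMb1, whose promoters hold the pair in the same order. The RefSeq promoter table (build GRCm38.p6) held windows of 300 bases for 4 of the 8 members, the fourth being H2-DMa with both of its listed starts. H2-Ab1, Cd74, Ciita and Cd86 had no entry. The 250 bases before the gene start are printed 5′ to 3′ on the strand of the gene, which is chr17:34287824-34288073 on the minus strand for H2-Aa, chr17:34305617-34305866 on the plus strand for H2-Eb1 and chr17:34152941-34153190 on the plus strand for H2-DMb1. Capitals mark matches to an X-box core (TNGNAAC) or a Y-box core (GATTGG) on either strand. The letters of both cores were chosen after these sequences had been seen, and they do not overlap each other.
H2-Aa: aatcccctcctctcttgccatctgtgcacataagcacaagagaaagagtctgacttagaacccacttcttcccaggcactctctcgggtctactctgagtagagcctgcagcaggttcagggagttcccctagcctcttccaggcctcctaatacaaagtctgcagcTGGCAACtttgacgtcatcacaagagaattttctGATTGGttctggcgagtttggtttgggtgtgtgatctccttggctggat
H2-Eb1: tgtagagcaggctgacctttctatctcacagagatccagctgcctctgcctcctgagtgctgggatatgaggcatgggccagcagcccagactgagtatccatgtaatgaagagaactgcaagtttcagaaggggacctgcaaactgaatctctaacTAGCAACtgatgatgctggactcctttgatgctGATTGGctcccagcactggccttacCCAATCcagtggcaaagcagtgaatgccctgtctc
H2-DMb1: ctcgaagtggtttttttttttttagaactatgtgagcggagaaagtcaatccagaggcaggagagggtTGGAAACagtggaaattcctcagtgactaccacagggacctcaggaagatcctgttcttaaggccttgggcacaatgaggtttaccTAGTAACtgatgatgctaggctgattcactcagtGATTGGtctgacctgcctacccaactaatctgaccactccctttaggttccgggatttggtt
In H2-Aa the X-box core TGGCAAC started 83 bases before the gene start and the Y-box core followed 34 bases later. In H2-Eb1 the distance was 33 bases, from TAGCAAC at 93 bases before the start, and a reverse-strand Y-box core stood closer to the start. In H2-DMb1 it was 34 bases, from TAGTAAC at 96 bases before the start, with a further X-box match, TGGAAAC, upstream. The H2-DMa windows held no X-box core and 1 Y-box core between them. Of 32851 RefSeq windows of this length, 35.2% held the X-box core, 16.11% the Y-box core, and 0.42% an X-box core followed by a Y-box core at 20 to 50 bases. These matches describe the letters of the reference genome and were not measured in these wounds.

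The libraries held 42.92 M to 47.12 M reads as recovered from the steps of the FPKM values, and 26081 to 27189 genes above 0. Sfrp2, the siRNA target, was checked first. It was at 11.6, 40.6 and 14.1 FPKM in NC 1 to 3 and at 50.6, 54.6 and 55.2 FPKM in libraries labelled SFRP2-siRNA 1 to 3. The target was therefore higher, not lower, in every library labelled SFRP2-siRNA (log2 difference 1.45, SE 0.43, limma unadjusted p = 0.0125, adjusted p = 0.518 with Benjamini-Hochberg adjustment), and the labels are used below only as names. The supplement gives 3 SFRP2 siRNA sequences under the names siRNA-1 to siRNA-3, and whether each library received another sequence is not stated. SFRP2-siRNA 2 stood apart in some genes of the MHC region, on which more is given with the chain ratios. Member values are therefore also given without SFRP2-siRNA 2. Values without SFRP2-siRNA 3, the library with the lowest level of every member in its group, are given for the same reason.

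Every one of the 8 members had a higher mean in the libraries labelled SFRP2-siRNA than in NC, with differences of 0.32 to 0.82 on the log2(FPKM + 1) scale and a median of 0.47. None of these differences passed the test, and adjusted p-values ran from 0.518 to 0.591 (limma, Benjamini-Hochberg over all genes tested). The direction was shared by most of the transcriptome, since 71.8% of the 16005 genes tested had a difference above 0 and the median gene stood at 0.125. With median-of-ratios scaling 51.0% of genes and still 8 of 8 members lay above 0, and the members' median was 0.33 against 0.005 for all genes. Called genes, at an adjusted p under 0.05 and an absolute log2 difference over 1, numbered 0 of 8 members and 0 of 16005 genes (0.0%). At an unadjusted p under 0.05 there were 0 members, while 1533 genes or 9.58% of those tested passed that mark. No member had groups that did not overlap, against 13.9% of genes for which all 3 libraries labelled SFRP2-siRNA lay above all 3 NC libraries. When limma's voom was run on the recovered reads it likewise called 0 genes, with 1538 at an unadjusted p under 0.05 and 0 members among them.

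The overlap between the groups rested on SFRP2-siRNA 3. In SFRP2-siRNA 1 and in SFRP2-siRNA 2, each of the 8 members lay above every NC library. In SFRP2-siRNA 3, 7 members lay within the NC range and 1, H2-Ab1, lay below it. Of all genes tested, 45.2% lay above every NC library in SFRP2-siRNA 3, compared with 40.2% in SFRP2-siRNA 1 and 36.3% in SFRP2-siRNA 2. Among the NC libraries, NC 2 was highest for 8 of 8 members, and NC 1 was the lowest of all 6 libraries for 7 of 8. Without SFRP2-siRNA 3, 8 of 8 members had groups that did not overlap (22.0% of all genes), which follows from the values just given. Of the members, 7 then had an unadjusted limma p under 0.05 (8.75% of all genes), but adjusted p-values stayed at 0.456 or above. SFRP2-siRNA 3 was singled out for its low member levels, so neither count can be weighed against the share of all genes. Without NC 2, 3 members did not overlap (25.8% of all genes), and without SFRP2-siRNA 2, 0 members did (21.2% of all genes). All these orders were taken on FPKM without further scaling. The median-of-ratios size factor was 0.84 for NC 1 and 0.98 to 1.08 for the other libraries, so FPKM in NC 1 ran low across genes. The places of NC 1 and SFRP2-siRNA 3 therefore depend on scaling and were not counted on scaled values. With that scaling 0 members had groups that did not overlap (5.54% of all genes).

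**Figure D1:**
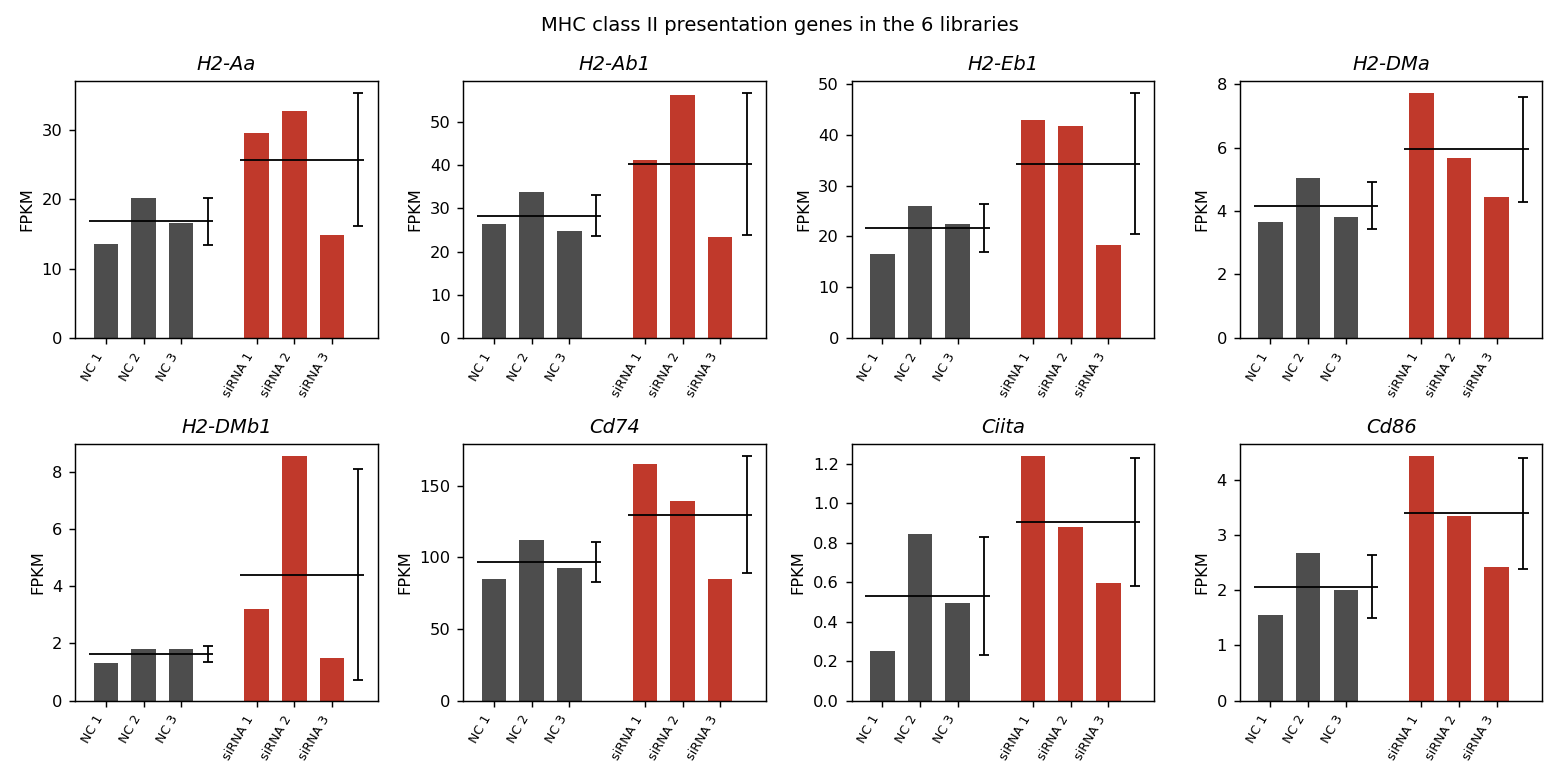
FPKM of each of the 8 genes (vertical axes, each from 0) in the 3 NC libraries (grey) and the 3 libraries labelled SFRP2-siRNA (red, shortened to siRNA), with horizontal lines at the group means and bars of 1 SD (n = 3). siRNA 1 and siRNA 2 exceed every NC library in all 8 panels, and siRNA 3 in none.

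The classical chains were the most abundant members after Cd74. H2-Aa encodes the alpha chain of I-A, H2-Ab1 its beta chain and H2-Eb1 the beta chain of I-E. H2-Aa was at 13.6, 20.2 and 16.6 FPKM in NC 1 to 3 and at 29.5, 32.8 and 14.8 FPKM in SFRP2-siRNA 1 to 3. SFRP2-siRNA 3 thus fell between NC 1 and NC 3, and SFRP2-siRNA 1 and 2 lay well above the NC libraries. The group means were 16.8 ± 3.33 and 25.7 ± 9.6 FPKM (SD, n = 3), a log2 difference of 0.53 (SE 0.31, limma adjusted p = 0.548). The exact two-sided permutation test of its FPKM gave p = 0.3, where 0.1 is the smallest value that 3 libraries against 3 allow.

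H2-Ab1 was at 26.4, 33.8 and 24.8 FPKM in NC and at 41.3, 56.2 and 23.4 FPKM in libraries labelled SFRP2-siRNA. It was the member with SFRP2-siRNA 3 lowest of all 6 libraries, and its log2 difference was 0.42 (SE 0.32, limma adjusted p = 0.591). H2-Eb1 stood at 16.6, 26.0 and 22.5 FPKM in NC and at 42.9, 41.8 and 18.2 FPKM in the other group. Its SFRP2-siRNA 1 and 2 values were close to each other, and SFRP2-siRNA 3 was near NC 1, for a log2 difference of 0.56 (SE 0.35, limma adjusted p = 0.558). Without SFRP2-siRNA 3 the log2 differences of H2-Aa, H2-Ab1 and H2-Eb1 were 0.87, 0.76 and 0.96. Without SFRP2-siRNA 2 they were 0.32, 0.14 and 0.38, and without SFRP2-siRNA 1 they were 0.39, 0.36 and 0.36.

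The proportions of the 3 chains within a library were compared next. H2-Aa per H2-Ab1 ranged from 0.513 to 0.669 in NC and from 0.583 to 0.715 in the libraries labelled SFRP2-siRNA. H2-Eb1 per H2-Ab1 ranged from 0.628 to 0.905 and from 0.743 to 1.04. H2-Eb1 exceeded H2-Aa in 6 of 6 libraries, and H2-Ab1 exceeded H2-Eb1 in 5 of 6, the exception being SFRP2-siRNA 1. The alpha chain partner of H2-Eb1, listed as H2-Ea-ps in the gene name table and as H2-Ea in RefSeq, is not a member. It was at 47.3, 73.6 and 57.3 FPKM in NC and at 103, 45.7 and 50.2 FPKM in SFRP2-siRNA 1 to 3, so SFRP2-siRNA 2, among the highest for the members, was the lowest of all libraries here. H2-Ea-ps per H2-Eb1 was 2.85, 2.83 and 2.55 in NC, 2.39 in SFRP2-siRNA 1, 2.76 in SFRP2-siRNA 3 and 1.09 in SFRP2-siRNA 2.

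The peptide exchange factor H2-DM showed the same library apart. H2-DMa, its alpha chain, was at 3.67, 5.03 and 3.82 FPKM in NC and at 7.72, 5.67 and 4.45 FPKM in libraries labelled SFRP2-siRNA. Here SFRP2-siRNA 3 lay above the NC mean though below NC 2, and the log2 difference was 0.41 (SE 0.20, limma unadjusted p = 0.0871, adjusted p = 0.526), or 0.23 without SFRP2-siRNA 1. H2-DMb1, a beta chain, was at 1.32, 1.82 and 1.79 FPKM in NC and at 3.2, 8.56 and 1.48 FPKM in the other group. SFRP2-siRNA 2 was by far the highest, and the group mean of 4.41 ± 3.69 FPKM (SD, n = 3) rested on it, against 1.64 ± 0.279 FPKM in NC. The log2 difference of H2-DMb1, the largest of the members at 0.82 (SE 0.45, limma adjusted p = 0.536), was 0.29 without SFRP2-siRNA 2 and 1.27 without SFRP2-siRNA 3. These values rested on 98 to 652 reads a library. H2-DMb1 per H2-DMa was 0.36, 0.361 and 0.469 in NC, 0.415 and 0.332 in SFRP2-siRNA 1 and 3, and 1.51 in SFRP2-siRNA 2. For the neighbouring, closely similar beta chain H2-DMb2 the same ratio was lowest in SFRP2-siRNA 2, at 0.455 against 0.592 to 0.713 in the other 5 libraries, and reads may be split between both genes.

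Other genes of the MHC region were examined after these values had been seen. Of 25 genes with an H2 symbol that were tested, SFRP2-siRNA 2 lay more than 0.5 log2 units outside the range of the other 5 libraries for 4 (16%), namely H2-DMb1, H2-K2, H2-Q6 and H2-Q10, compared with 1.12% of all genes in that library. SFRP2-siRNA 1 did so for 1, H2-DMb2, and the remaining 4 libraries for none. The 25 genes include H2-DMb1 and H2-DMb2, whose values had prompted this look, so these shares are a description and not a test. H2-Q10 was at 3.18 FPKM in SFRP2-siRNA 2 and at 0.36 to 0.825 FPKM elsewhere. Rps18, a ribosomal protein gene on the same chromosome 17, was at 166 FPKM in SFRP2-siRNA 2 and between 11.6 and 23.4 FPKM elsewhere. MHC genes differ in sequence between mouse strains, and the C57BL/6 reference carries an allele set other than that of C57BL/Ks, with an H2-Ea copy that C57BL/6 mice do not express. The labels give no MHC alleles for single animals, and the part of allele sequence in these values was not tested. For 13 ratios compared between groups, including 4 on summed macrophage markers, the smallest Benjamini-Hochberg value was 0.827 (exact two-sided permutation tests).

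**Figure D2:**
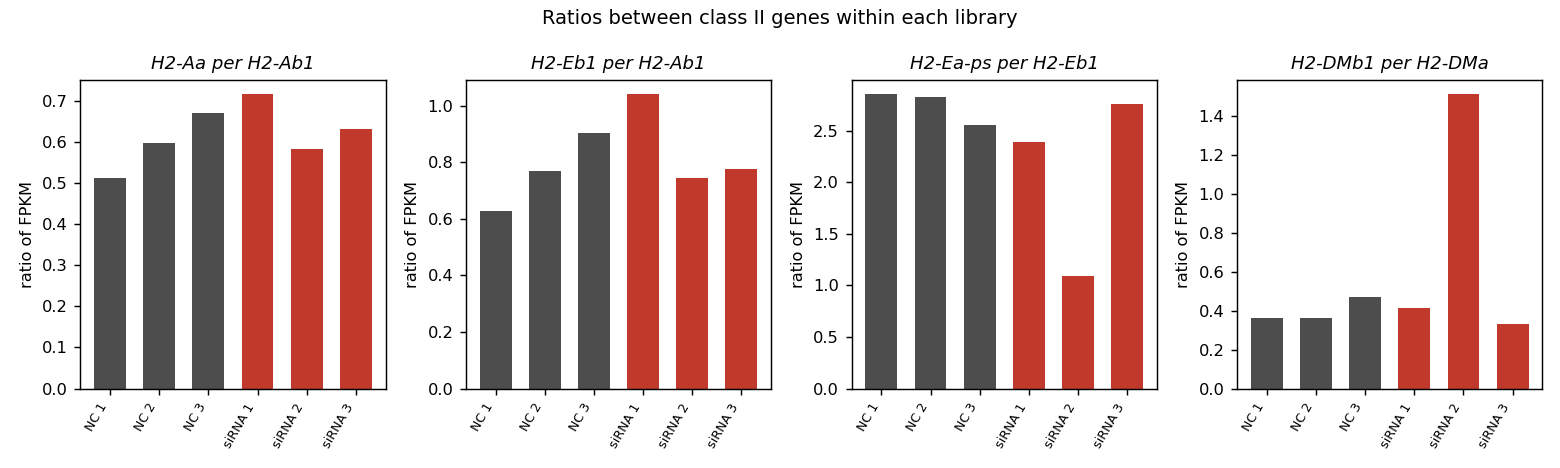
Ratio of FPKM between class II genes within each library (vertical axes from 0), NC in grey and the libraries labelled SFRP2-siRNA in red. H2-Aa per H2-Ab1 runs from 0.513 to 0.715 and H2-Eb1 per H2-Ab1 from 0.628 to 1.04, with siRNA 2 within the range of the others, while siRNA 2 is lowest for H2-Ea-ps per H2-Eb1 (1.09) and highest for H2-DMb1 per H2-DMa (1.51).

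Cd74, the invariant chain, was the most abundant member in each library. It was at 85.0, 112 and 92.9 FPKM in NC and at 165, 139 and 85.1 FPKM in libraries labelled SFRP2-siRNA. SFRP2-siRNA 3 matched NC 1, the lowest NC library. The means of 96.6 ± 13.9 and 129.9 ± 40.9 FPKM (SD, n = 3) gave a log2 difference of 0.38 (SE 0.27, limma adjusted p = 0.583), which became 0.66 without SFRP2-siRNA 3, 0.30 without SFRP2-siRNA 2 and 0.18 without SFRP2-siRNA 1. Cd74 per H2-Ab1 was 3.22 to 3.75 in NC, 4.0 and 3.63 in SFRP2-siRNA 1 and 3, and 2.47 in SFRP2-siRNA 2.

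Ciita, the transactivator of class II genes, was the least abundant member. It was at 0.252, 0.846 and 0.497 FPKM in NC and at 1.24, 0.882 and 0.594 FPKM in libraries labelled SFRP2-siRNA. NC 2 nearly reached SFRP2-siRNA 2, and NC 1 was far below all others. The log2 difference was 0.32 (SE 0.19, limma adjusted p = 0.548) on a scale that compresses such low values, and 0.86 (SE 0.47, limma voom adjusted p = 0.525) on the recovered reads, of which there were 106 to 508 a library. On the log2(FPKM + 1) scale it was 0.18 without NC 1 and 0.20 without SFRP2-siRNA 1. The RFX and NF-Y subunits bind the X and Y boxes and recruit Ciita. Rfx5 was at a mean of 2.03 FPKM in NC and 2.33 FPKM in the other group (log2 difference 0.14, SE 0.15), and Rfxank at 2.2 and 2.24 FPKM. Nfyb, an NF-Y subunit, was at 3.35 to 4.5 FPKM in NC and at 4.91 to 5.26 FPKM in libraries labelled SFRP2-siRNA, without overlap (limma unadjusted p = 0.0369, adjusted p = 0.518). The other NF-Y subunits did not share this. Nfya overlapped between groups (mean 5.82 and 6.83 FPKM), and Nfyc was lower without overlap, at a mean of 16.5 and 15.0 FPKM (log2 difference -0.13, SE 0.13, limma unadjusted p = 0.328).

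Cd86 encodes a costimulatory ligand that antigen-presenting cells show to CD28 on T cells. It was at 1.55, 2.67 and 2.0 FPKM in NC and at 4.44, 3.35 and 2.42 FPKM in libraries labelled SFRP2-siRNA, so that only SFRP2-siRNA 3 fell below NC 2. Its log2 difference of 0.51 (SE 0.21) had the smallest p of the members, unadjusted p = 0.0503 and adjusted p = 0.518 (limma), and was 0.34 without SFRP2-siRNA 1. The related ligand Cd80 was at 2.22, 2.18 and 1.09 FPKM in NC and at 4.52, 3.59 and 2.16 FPKM in the other group (log2 difference 0.63, SE 0.26, limma unadjusted p = 0.0464, adjusted p = 0.518). For both ligands SFRP2-siRNA 1 was highest, SFRP2-siRNA 2 next and SFRP2-siRNA 3 back within the NC range.

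In order of mean NC level, the members ran Cd74 (96.6 FPKM), H2-Ab1 (28.3), H2-Eb1 (21.7), H2-Aa (16.8), H2-DMa (4.17), Cd86 (2.07), H2-DMb1 (1.64) and Ciita (0.532 FPKM). The ranges of mean ± SD of neighbours among the 3 chains overlapped, as did those of Cd86 and H2-DMb1. In the libraries labelled SFRP2-siRNA the order was the same except that H2-DMb1 (4.41 FPKM) stood above Cd86 (3.4 FPKM), which rested on SFRP2-siRNA 2.

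**Figure D3:**
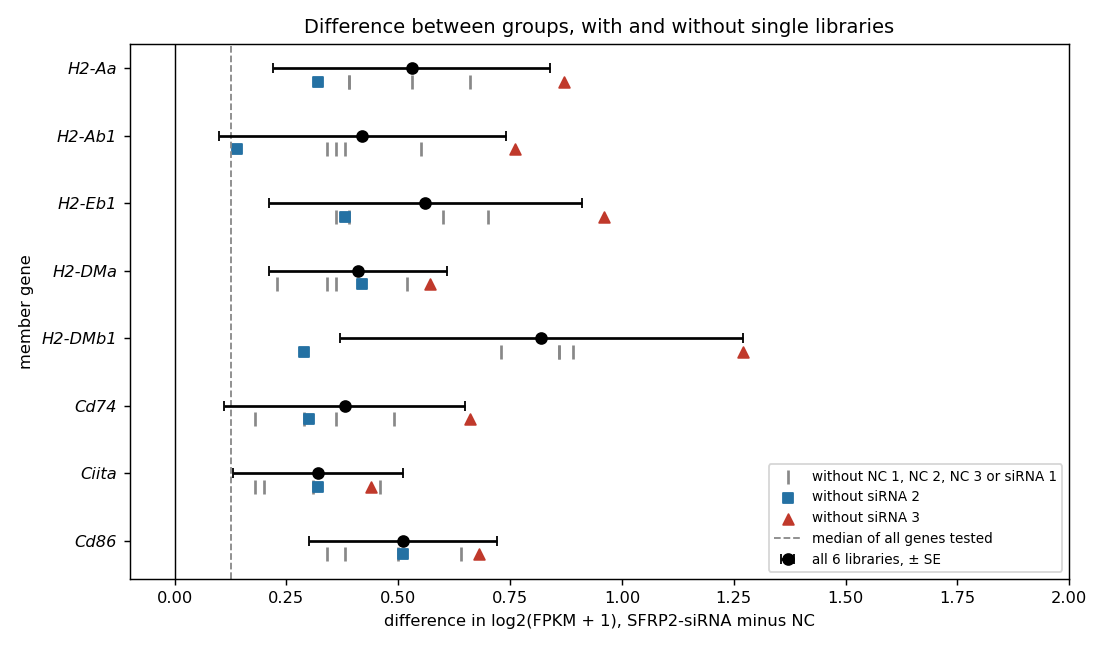
Difference in log2(FPKM + 1) between the libraries labelled SFRP2-siRNA and NC (horizontal axis) for each member, with its standard error (black) and the value with 1 library left out (markers beneath). All values lie above 0. Those without siRNA 3 (triangles) exceed the 6-library value for every gene, which follows from siRNA 3 being the lowest library of its group for each. H2-DMb1 moves most without siRNA 2 (square, 0.29).

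Other genes of the class II pathway were taken from a list of 28, of which 24 passed the filter. Their median log2 difference was 0.24, and 22 had a difference above 0 and 2 below it. At an unadjusted limma p under 0.05 there were 5, against 9.58% of all genes, and 0 were called. Ctss encodes cathepsin S, the protease that finishes the removal of the invariant chain. It was at 121, 279 and 178 FPKM in NC and at 499, 352 and 319 FPKM in SFRP2-siRNA 1 to 3, so here SFRP2-siRNA 3 lay above every NC library (log2 difference 1.07, SE 0.35, limma unadjusted p = 0.0186, adjusted p = 0.518). Lgmn, legumain, another endosomal protease, was at 151 to 238 FPKM in NC and at 259.8 to 414 FPKM in the other group (log2 difference 0.82, SE 0.28, limma adjusted p = 0.518). Il10, a cytokine that lowers surface class II on macrophages, was at 0.588 to 1.32 FPKM in NC and at 1.38 to 1.92 FPKM in libraries labelled SFRP2-siRNA (log2 difference 0.52, SE 0.17, limma adjusted p = 0.518). These genes were named for the smallest p in the list, of which 4 of 24 tested (16.7%) were higher without overlap, against 13.9% of all genes, and 1, Nfyc, was lower without overlap. H2-Oa and H2-Ob, the chains of the H2-DM inhibitor H2-O, were below the filter, at 0.101 to 0.348 FPKM.

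Class I presentation genes and the interferon gamma axis, which induces Ciita, were taken from lists of their own. Of 19 class I genes, all tested, 19 were higher with a median of 0.27. Higher without overlap was 1 (5.26%), against 13.9% of all genes, and 0 had an unadjusted limma p under 0.05 (9.58% of all genes). Their smallest p belonged to H2-T23, a non-classical class I molecule, at a mean of 21.9 FPKM in NC and 32.5 FPKM in libraries labelled SFRP2-siRNA (limma adjusted p = 0.52). Psmb8 and Psmb9, the immunoproteasome subunits, had log2 differences of 0.45 (SE 0.28) and 0.37 (SE 0.24), and Pdia3, a chaperone of class I loading, of 0.28 (SE 0.19). On the interferon gamma axis 12 of 13 genes were tested, 11 were higher and 1 lower, and the median was 0.33. Higher without overlap were 2 (16.7%), against 13.9% of all genes, and 1 had an unadjusted limma p under 0.05 (9.58% of all genes). Socs1, a feedback inhibitor of the pathway, was at 0.826 to 1.06 FPKM in NC and at 1.28 to 1.7 FPKM in the other group (log2 difference 0.39, SE 0.12, limma unadjusted p = 0.0144, adjusted p = 0.518). Irf8, Jak2 and Ifngr2, a transcription factor, a kinase and a receptor chain of this axis, had log2 differences of 0.60 (SE 0.26), 0.44 (SE 0.23) and 0.24 (SE 0.13). Ifng itself was close to the limit of detection, with 0 to 5 reads a library. It was listed at 0.0175 FPKM in NC 1, at 0 in NC 2 and NC 3 and at 0.0328 to 0.0899 FPKM in libraries labelled SFRP2-siRNA.

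In whole wound tissue, more cells of a type and more RNA per cell cannot be told apart, so marker lists are given beside the members. All 12 macrophage markers had a difference above 0, as had 71.8% of all genes, with a median log2 difference of 0.72. At an unadjusted limma p under 0.05 there were 9, against 9.58% of all genes in either direction. Higher without overlap were 5 (41.7%), against 13.9% of all genes, and 0 were called. Their summed level was 1088, 1745 and 1159 FPKM in NC and 2599, 2068 and 1948 FPKM in SFRP2-siRNA 1 to 3. The summed level of SFRP2-siRNA 3 was above every NC library, but by single marker this held for 7 of 12, against 45.2% of all genes in that library. It held for 12 markers in SFRP2-siRNA 1 (40.2% of all genes) and 9 in SFRP2-siRNA 2 (36.3% of all genes). Of the 8 members it held for 0 in SFRP2-siRNA 3. Cd68, Csf1r, Mrc1, Cd14 and Fcgr1 were the 5 markers not above every NC library in SFRP2-siRNA 3. Lyz2 (941 FPKM) was the largest part of its sum. C1qc, a complement subunit, was at 96.6 to 137 FPKM in NC and 156 to 182 FPKM in the other group, and Itgam, the CD11b integrin chain, at 4.0 to 7.12 and 7.35 to 17.8 FPKM. As a percent of the summed macrophage markers, H2-Aa, H2-Ab1 and H2-Eb1 together came to 5.2, 4.59 and 5.51 in NC and to 4.37, 6.33 and 2.9 in SFRP2-siRNA 1 to 3. Cd74 came to 7.81, 6.41 and 8.02 and to 6.36, 6.73 and 4.37. On this scale neither was higher in the libraries labelled SFRP2-siRNA as a group (exact two-sided permutation p = 0.6 and 0.2), and SFRP2-siRNA 3 was the lowest library for both. Cd86 came to 0.142 to 0.173 percent in NC and to 0.124 to 0.171 percent in the other group. The part of macrophage number in the members' differences was not tested.

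Dendritic cell markers, of which 9 of 12 were tested and 8 were higher (median log2 difference 0.25), summed to 58.3 to 94.1 FPKM in NC and to 108 to 146 FPKM in libraries labelled SFRP2-siRNA, with 146, 108 and 119 FPKM in SFRP2-siRNA 1 to 3. The largest single part of that sum was Clec10a, a lectin that macrophages also make, at 27.1 to 49.4 and 64.7 to 92.8 FPKM. Without Clec10a, left out after its values were seen, the sums overlapped, at 31.2, 45.6 and 34.4 FPKM in NC and at 53.0, 43.3 and 35.8 FPKM in SFRP2-siRNA 1 to 3. Irf4 was at 1.27 to 1.66 and 1.69 to 3.11 FPKM, while Flt3, Xcr1 and Siglech stayed under the filter. Langerhans cell markers (3 of 3 tested, 2 higher, median 0.29) summed to 22.9 to 51.6 FPKM in NC and 15.1 to 35.6 FPKM in the other group, with Cd207, langerin, at a mean of 1.1 and 2.15 FPKM and Ly75 at 0.431 and 0.756 FPKM. Most of that sum was Epcam, which went the other way, at a mean of 38.5 and 23.9 FPKM (log2 difference -0.72, SE 0.47, limma adjusted p = 0.566). B cell markers were mostly under the filter (5 of 10 tested, 4 higher, median 0.13), their sums overlapped at 53.6 to 92.8 and 59.8 to 86.9 FPKM, and Cd79a and Cd22 had log2 differences of 0.21 (SE 0.13) and 0.13 (SE 0.13). T cell markers (6 of 11 tested, 3 higher, median 0.03) summed to 14.2 to 17.6 and 12.4 to 20.6 FPKM. Cd3g was at 0.416 to 0.467 FPKM in NC and 0.584 to 1.07 FPKM in the other group, and Cd4 at a mean of 1.61 and 1.94 FPKM. The 3 tested T cell markers with a difference below 0 were Trac, at a mean of 1.66 and 1.23 FPKM (log2 difference -0.25, SE 0.23), Cd2 (-0.14, SE 0.23) and Trbc2 (-0.02, SE 0.20). No marker of these lists was at 0 in 3 or more libraries.

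Neutrophils are not known as a main source of class II. Their 6 markers were each above every NC library in SFRP2-siRNA 1 (40.2% of all genes) and in SFRP2-siRNA 2 (36.3% of all genes). In SFRP2-siRNA 3, 0 of 6 were so (45.2% of all genes), as for the members. The median log2 difference was 0.81, and the markers summed to 1761, 1679.9 and 1135 FPKM in NC and to 4598, 5522 and 980.3 FPKM in SFRP2-siRNA 1 to 3. Unlike the members, the sum was highest of the NC libraries in NC 1, and in SFRP2-siRNA 3 it was below all of them. Most of this sum was S100a9, at 805 FPKM in SFRP2-siRNA 3. By single marker S100a8, S100a9 and Cxcr2 lay below every NC library in SFRP2-siRNA 3, and Ly6g, Csf3r and Retnlg within the NC range. Among the NC libraries S100a9, Csf3r and Cxcr2 were highest in NC 2. Csf3r, the G-CSF receptor, was at 47.9, 39.4 and 11.9 FPKM and Retnlg at 254, 187 and 36.2 FPKM in SFRP2-siRNA 1 to 3. The part of neutrophils in the members' values was not tested. Fibroblast markers were higher in 6 of 6 cases (median 0.87), and 5 of them (83.3%) did not overlap, against 13.9% of all genes. They summed to 823 to 1831 FPKM in NC and to 2028 to 2118 FPKM in the other group, and did not set SFRP2-siRNA 3 apart. Dcn was at a mean of 89.0 and 149 FPKM and Col1a2 at 178 and 321 FPKM. Keratinocyte markers were higher for 2 and lower for 4 of 6 (median -0.09, 3605 to 6208 and 3301 to 6629 FPKM), with Krt10 at a mean of 635 and 402 FPKM and Krt1 at 369 and 320.1 FPKM. Adipocyte markers were lower for 6 of 6 (median -0.21, 1652 to 2054 and 855 to 2295 FPKM), with Plin1 at 89.8 and 52.2 FPKM and Fabp4 at 1040.3 and 727 FPKM. Skeletal muscle markers were higher for 5 of 5 (median 0.65, 2981 to 5848 and 3860.3 to 11156 FPKM, highest in SFRP2-siRNA 3), with Tnnt3 at 449.7 and 770.2 FPKM and Myh4 at 274 and 526 FPKM. In each of these pathway and marker lists 0 genes were called by limma.

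**Figure D4:**
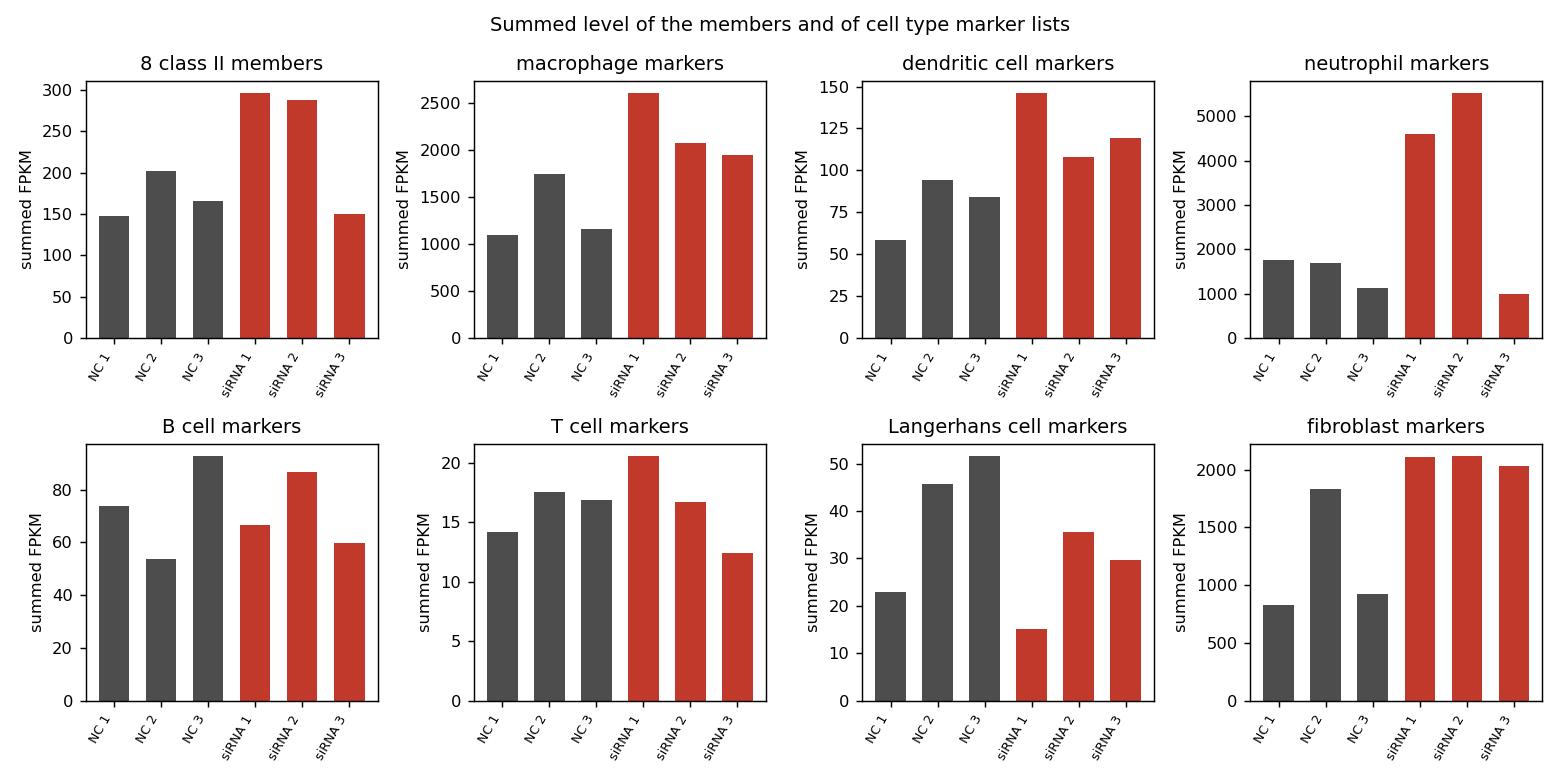
Summed FPKM (vertical axes from 0) of the 8 members and of 7 cell type marker lists in each library, NC in grey and the libraries labelled SFRP2-siRNA in red. The macrophage, dendritic cell and fibroblast sums are above every NC library in all 3 red bars, the dendritic cell sum only with Clec10a counted, and the sums of the members and of the neutrophil markers are so in siRNA 1 and siRNA 2 alone.

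The genes with the most similar pattern over the 6 libraries were found by the root mean square difference of centred log2(FPKM + 1) values from the mean of the members, among 8105 other genes that averaged 5 FPKM or more. The mean of the members was -0.46, -0.01 and -0.27 in NC 1 to 3 and 0.49, 0.56 and -0.32 in SFRP2-siRNA 1 to 3. Nearest was Lamb3, a laminin chain of the epidermal basement membrane, with a difference of 0.054 against a median of 0.41 for all genes compared. Tnfaip3 (0.087) and Nfkbiz (0.112), which regulate NF-kB signalling, were among the next, together with Gsr (0.102), Tpd52 (0.107), Smox (0.11), Tiparp (0.11) and Litaf (0.118). Of the members themselves, H2-Aa (0.073) and Cd74 (0.109) lay closest to their common pattern and H2-DMb1 (0.407) farthest, about as far as the median gene. The likeness is over 6 libraries that share depth and tissue composition, and is a description only.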

How the data were processed

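Wound tissue from dbdb mice, 3 samples labelled NC and 3 labelled SFRP2-siRNA, was profiled by paired-end mRNA sequencing. The authors deposited FPKM values for 33184 Ensembl gene IDs. The submitters' processing notes name HISAT2, featureCounts and Subread. The genome build and annotation are not given in the sources used here. Symbols from a gene name table matched 32582 IDs. With GENCODE vM21 exon lengths, 98.64% to 98.83% of values under 20 reads were whole within 0.02 reads, which gave the depth of each library (42.92 M to 47.12 M reads). Of these low values 62.7% to 65.3% were even, so mates of a pair appear to have been counted singly and reads are not independent.

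Values were analysed as log2(FPKM + 1), a scale that understates the change of low genes, for genes that averaged 0.5 FPKM or more. The study names DESeq2, which needs counts, so limma 3.58.1 (lmFit, eBayes with trend, R 4.3.3) was used on all 6 libraries without covariates, two-sided, with Benjamini-Hochberg adjustment over 16005 genes. Genes were called at an adjusted p under 0.05 and an absolute log2 difference over 1. On simulated data for the NC and SFRP2-siRNA comparison (16005 genes, 200 changed by 2 on the log2 scale, 10 runs) 87.6% were recovered with a mean of 3.8 false calls. The members differed by 0.32 to 0.82, and the simulated noise was independent between genes, so this share does not give the recovery at the members' size. Single genes and ratios were compared by exact permutation tests. Summaries used Python 3.11.15, pandas 2.3.3 and numpy 2.4.6.

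The members and gene lists were chosen with earlier results of these data known. Beside the 8 members and Sfrp2, the text names the 4 genes with the smallest p of each pathway list, the 2 of each cell type list and the 8 genes most like the members. H2-Ea-ps, H2-DMb2, H2-K2, H2-Q6, H2-Q10, Rps18, Cd80, Rfx5, Rfxank, Nfya, Nfyc, Epcam, Trac, Cd2, Trbc2, Lyz2, Cd68, Csf1r, Mrc1, Cd14, Fcgr1, S100a8, S100a9, Ly6g, Cxcr2, H2-Oa, H2-Ob, Ifng, Flt3, Xcr1 and Siglech were named after their values had been seen. Alternatives were another pseudocount, other filters, 3 scalings, no trend, sample weights, a replicate block, leaving out each library and, added after the data had been seen, voom on recovered reads, counting H2-Ea-ps with the members and the dendritic cell sum without Clec10a. The same-numbered libraries of both groups deviated with correlations of -0.047, -0.151 and 0.38, so numbers were not taken as pairs.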

Additional observations from a re-analysis of the deposited data

How the results depend on the processing

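With 3 libraries a group, these data could not separate differences of the members' size from the spread between libraries. In all 127 refits of single members under the 16 alternatives, the difference stayed above 0 and short of the call, with adjusted p-values (limma) of 0.306 or more. Other filters, no trend and the replicate block cannot change a difference, only its p-value. Every alternative also reuses these same libraries, so the count does not measure support for the direction. Ciita gave no value with the filter at 2 FPKM. Leaving out 1 library at a time moved the number of members without overlap between 0 and 8 and the number at an unadjusted p under 0.05 between 0 and 7, both highest without SFRP2-siRNA 3, and the members' median log2 difference between 0.32 and 0.72. With estimated sample weights 2 members, H2-DMb1 and Cd86, had an unadjusted limma p under 0.05 (14.0% of all genes). That fit leaned on SFRP2-siRNA 2, with a weight of 5.27 against 0.36 to 1.21 for the other libraries, and put H2-DMb1 at 1.46. Counting H2-Ea-ps with the members gave a median of 0.42. Each replicate block held 1 library of each group, so it could not move the median of 0.47 or H2-Aa from 0.53. With the block H2-Aa had an SE of 0.27 and a limma adjusted p of 0.447, 0 genes were called, and no call changed. The count of called genes was 0 under every alternative, and Sfrp2 kept its higher level in the group labelled SFRP2-siRNA, by 1.12 to 1.98 on the log2 scale.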
